A study of Mus musculus with 13 samples.

Results

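The inflammasome and interleukin-1 genes examined here were Il1a, Il1b, Il1rn, Il18, Nlrp3, Pycard, Casp1, Casp4 and Gsdmd. They were taken by symbol from the deposited expression table, where each of the 9 had 1 of the 19737 rows, and 8 of them were among the 10817 genes tested. Il1rn fell under the filter of a mean of 1 FPKM (fragments per kilobase of gene and scaled to the fragments of the library) and was examined separately.

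Interleukin-1 alpha and interleukin-1 beta bind the same receptor and start inflammatory gene expression, and the receptor antagonist encoded by Il1rn occupies that receptor without signalling. An inflammasome is a complex in which a sensor such as NLRP3 joins the adaptor ASC, the product of Pycard, to activate caspase-1. Caspase-1 then cuts the inactive precursors of interleukin-1 beta and interleukin-18 and the pore-forming protein gasdermin D, and caspase-11, the product of mouse Casp4, cuts gasdermin D in response to bacterial lipopolysaccharide. In the brain microglia are a main source of these components, and transcription of Il1b and Nlrp3 is known as the priming step that precedes assembly. The transcript level measures priming at most: cutting, assembly and release take place at the protein level and were not measured.

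The libraries were RNA-seq of ribosomal RNA-depleted RNA from mouse microglia in 4 groups. The control vector, in 3 wild type and 2 5xFAD libraries, was AAV PHP.eB-EGFP, an adeno-associated virus whose capsid reaches the brain from the blood, carrying a green fluorescent protein. 5xFAD mice carry human amyloid precursor protein and presenilin transgenes with familial Alzheimer's disease mutations, driven by a neuronal promoter, and form amyloid plaques. In 4 further 5xFAD libraries the AAV PHP.eB vector carried circPOLR2A, a circular RNA, and the last group was 5xFAD; PKR KO (n = 4), labelled as a knockout of the kinase PKR, a sensor of double-stranded RNA encoded by Eif2ak2. The series title places the delivered RNA in neurons and the readout in microglia. The circRNA libraries were grouped by their titles. Their treatment labels read circPOLR2A(9,10), (9,11), (9,12) and (9,13) for replicates 1 to 4, while the series' design text gives (9,10) for the whole group. For the PKR knockout samples no vector is labelled, and only they carry library names, so vector, library set and knockout cannot be told apart. Age, sex, the way microglia were isolated and whether animals were pooled are not given in the sources used here, and no label ties a library to an animal, so the p-values measure the spread between these libraries.

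Il1a (chr2:129299610-129309972) and Il1b (chr2:129364570-129371139) lay on the minus strand of chromosome 2 with 54597 bases between them, and Il1rn (chr2:24336853-24351494) lay on the plus strand of the same chromosome. Casp1 (chr9:5298517-5307265) and Casp4 (chr9:5308828-5336783) were neighbours on the plus strand with 1562 bases between them, and Il18 (chr9:50554827-50581840) lay farther along the same chromosome. Nlrp3 (chr11:59541568-59566956, plus strand), Pycard (chr7:127989708-127993867, minus strand) and Gsdmd (chr15:75862327-75867408, plus strand) stood alone. Positions are those of GENCODE M21 on GRCm38, the Genome Reference Consortium name of the mm10 build in the submitters' processing notes.

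The 250 bases upstream of the start are shown for Il1b, Nlrp3 and Casp4, on which the comparisons turned, and for Il1a, the neighbour of Il1b that shares its receptor. They come from RefSeq (GRCm38.p6), which had an entry for 8 of the 9 members, and read 5′ to 3′ on the gene's own strand. Capitals mark matches, on either strand and with overlaps allowed, to 6 motifs. The TATA box was searched as TATAAA, and the motif of AP-1, a factor made of Fos and Jun proteins, as TGANTCA. The motif of ETS factors such as PU.1, a master regulator of microglia, was searched as GAGGAA, and that of C/EBP factors as TTGCNNAA. The NF-kappaB motif was searched as 3 guanines, 5 bases of any kind and 2 cytosines, and the interferon response element as GAAA repeated after 2 bases of any kind. In all 32851 promoter windows of this length 12.4% held TATAAA, 45.8% the NF-kappaB motif, 6.75% TGANTCA, 2.98% the interferon response element, 23.3% GAGGAA and 9.56% TTGCNNAA.
Il1a, chr2:129309973-129310222, minus strand: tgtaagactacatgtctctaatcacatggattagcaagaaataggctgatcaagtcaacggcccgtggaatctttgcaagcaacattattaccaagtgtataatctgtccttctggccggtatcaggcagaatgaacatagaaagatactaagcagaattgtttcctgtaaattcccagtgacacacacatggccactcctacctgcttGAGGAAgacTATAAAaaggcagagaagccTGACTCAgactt
Il1b, chr2:129371140-129371389, minus strand: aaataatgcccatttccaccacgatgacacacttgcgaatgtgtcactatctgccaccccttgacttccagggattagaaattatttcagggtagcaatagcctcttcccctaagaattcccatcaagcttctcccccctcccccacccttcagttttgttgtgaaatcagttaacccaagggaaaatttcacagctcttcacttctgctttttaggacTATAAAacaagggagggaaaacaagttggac
Nlrp3, the upstream of 2 RefSeq starts, chr11:59541319-59541568, plus strand: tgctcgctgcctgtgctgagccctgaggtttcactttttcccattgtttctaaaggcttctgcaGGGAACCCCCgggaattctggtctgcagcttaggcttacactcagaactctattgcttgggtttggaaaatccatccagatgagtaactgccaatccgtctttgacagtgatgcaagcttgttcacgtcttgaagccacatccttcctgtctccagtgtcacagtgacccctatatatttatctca
Casp4, the upstream of 2 RefSeq starts, chr9:5308599-5308848, plus strand: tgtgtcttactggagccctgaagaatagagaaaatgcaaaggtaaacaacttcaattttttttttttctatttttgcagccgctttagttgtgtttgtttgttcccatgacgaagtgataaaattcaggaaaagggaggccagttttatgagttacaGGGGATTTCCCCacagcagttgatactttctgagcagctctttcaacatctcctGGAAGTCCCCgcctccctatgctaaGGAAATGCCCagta
Il1a and Il1b both held TATAAA at nearly the same place, from -32 to -27 and from -31 to -26 relative to the start. Il1a also held TGACTCA from -12 to -6 and GAGGAA from -41 to -36, while the Il1b window held no match to the other motifs. The Nlrp3 window shown had no TATAAA and held GGGAACCCCC, which matches the NF-kappaB letters on both strands, from -186 to -177. The window of the other Nlrp3 start, not shown, held 3 matches to GAGGAA and none to the NF-kappaB motif. Casp4 had 6 overlapping or separate matches to the NF-kappaB motif, of which 4 lay in the run GGGGATTTCCCC. The window used for Il1b lies inside Il1bos, a gene annotated on the opposite strand. A match describes letters and not a bound site.

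Library depth, recovered from the step sizes of low FPKM values, ranged from 45.2 to 70.0 M fragments, with the 4 PKR knockout libraries deepest at 57.7 M or more. Of the microglial markers, Cx3cr1 stood at 276 to 454 FPKM, P2ry12 at 153 to 421 FPKM and Tmem119 at 158 to 461 FPKM over the 13 libraries. Replicate 3 of the wild type group had the highest oligodendrocyte sum, 1534 FPKM. It was also the lowest wild type library for 8 of the 9 members, and its part in the results is given as values without it. In bulk RNA, fewer microglia in a sample and less of a transcript in each microglial cell cannot be told apart. Eif2ak2 (chr17:78852564-78882573), the targeted gene, stood at 3.35, 4.61, 3.31 and 4.16 FPKM in the PKR knockout libraries and at 6.49 to 8.11 FPKM in the other 5xFAD libraries. In wild type it stood at 5.18, 5.23 and 4.14 FPKM. The knockout libraries were below the other 5xFAD libraries but overlapped wild type. In log2(FPKM + 1) Eif2ak2 differed by -0.27 between PKR knockout and wild type (limma, adjusted p = 0.0486). Against 5xFAD EGFP the knockout differed by -0.64 without passing (adjusted p = 0.0644), and circRNA was 0.85 above the knockout (adjusted p = 0.00147). Which part of the gene is deleted is not given in the sources used here.

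Taken per exon length, Il1a led the members in each of the 4 group means. Its mean was 24.5 ± 5.25 FPKM (SD, n = 3) for wild type libraries, and for PKR knockout libraries it was 36.7 ± 7.82 FPKM (SD, n = 4). Gsdmd and Nlrp3 followed, and in wild type Gsdmd at 22.1 ± 4.75 FPKM (SD, n = 3) did not differ from Il1a beyond the spread of either. Pycard, Il18 and Il1b filled the middle, Casp1 and Casp4 came below them, and Il1rn was last in each group. The place of Il1b in this order differed most between groups. It had rank 6 in wild type, next to Casp1 with overlapping ranges, and rank 3 with PKR knockout. Over the 13 libraries the mean level exceeded that of 96.9% of listed genes for Il1a, 90.8% for Il1b, 65.2% for Casp4 and 31.7% for Il1rn. The exon union used for length is 5535 bases for Il1rn and 3710 for Casp4, while their longest annotated transcripts have 2554 and 1901 bases, so their FPKM are low relative to members with 1 main transcript. Pycard has an exon union of 3800 bases and coding transcripts of 3800 and 493 bases, so its level depends on which was present. That was not tested.

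**Figure D1:**
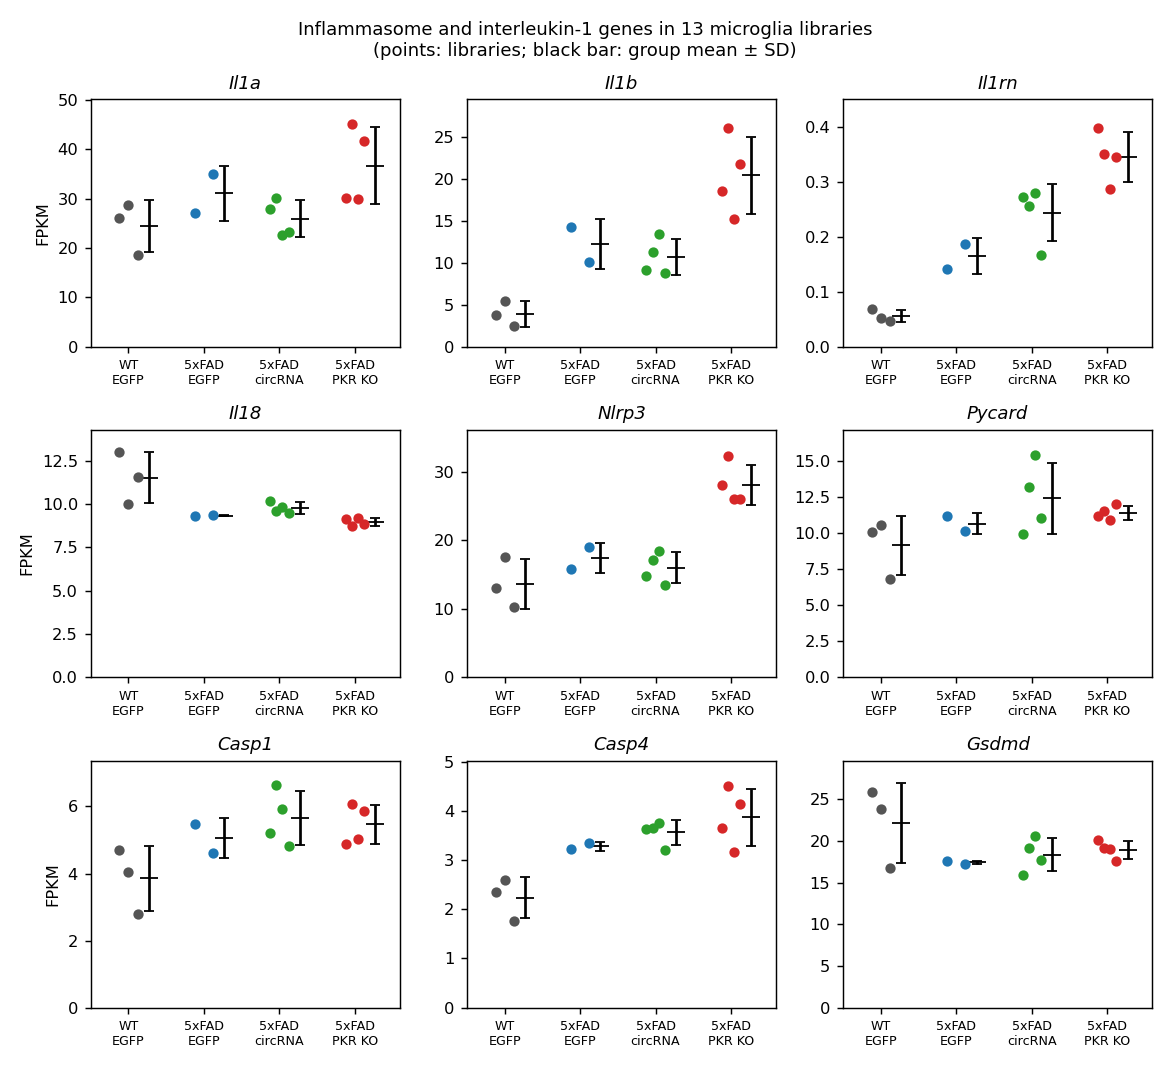
FPKM of the 9 members in the 13 libraries (1 point per library, linear axis from 0), with group mean ± SD in black. Il1b and Il1rn show wild type lowest and PKR knockout highest, Nlrp3 shows the 4 PKR knockout libraries apart at 26.01 to 32.3 FPKM, and Il18 and Gsdmd have their highest single libraries in wild type, with the lowest wild type library of each inside the range of the circRNA libraries.

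Among the ligands, Il1b varied most. It stood at 3.77, 5.49 and 2.47 FPKM in wild type replicates 1 to 3 and at 14.3 and 10.1 FPKM in the 5xFAD EGFP replicates. With circRNA it stood at 9.10, 11.3, 13.5 and 8.82 FPKM, and with PKR knockout at 18.6, 26.1, 15.3 and 21.8 FPKM. Every 5xFAD library was above every wild type library, the EGFP and circRNA libraries overlapped, and the 4 knockout libraries were above all others.

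Il1a, the alarmin of the pair, spread less between groups. Its levels were 26.03, 28.8 and 18.6 FPKM in wild type, 27.1 and 35.0 FPKM in 5xFAD EGFP, 27.9, 30.2, 22.6 and 23.1 FPKM in the circRNA libraries, and 30.0, 45.1, 30.0 and 41.6 FPKM with PKR knockout. The knockout libraries were above the wild type ones, with replicates 2 and 4 highest, and the other groups overlapped one another.

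Il18, whose product is cut by caspase-1 like interleukin-1 beta, ran the other way. It stood at 13.0, 10.0 and 11.6 FPKM in wild type, at 9.30 and 9.35 FPKM in 5xFAD EGFP, at 10.2, 9.59, 9.83 and 9.46 FPKM in the circRNA libraries, and at 9.11, 8.72, 9.20 and 8.82 FPKM with PKR knockout. The knockout libraries were the lowest and the circRNA libraries overlapped the lowest wild type library. The start of Il18 overlaps the start of Bco2, a gene annotated on the opposite strand, which had group means of 11.7 to 14.7 FPKM. The library kit keeps strand, but the strand setting of the authors' counting is not given in the sources used here, so reads of the overlap could belong to either gene.

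Il1rn, the antagonist, was scarce. Its levels were 0.0688, 0.0531 and 0.0465 FPKM in wild type, 0.142 and 0.188 FPKM in 5xFAD EGFP, 0.273, 0.256, 0.280 and 0.167 FPKM in the circRNA libraries, and 0.399, 0.351, 0.287 and 0.345 FPKM with PKR knockout. Behind them were 13.0 to 18.0 fragments in the wild type libraries and 42.0 to 136 fragments in the 5xFAD libraries, a counting error of 8.57% to 27.7%. Wild type was lowest and PKR knockout highest without overlap, and circRNA replicate 4 lay between the 2 EGFP libraries. The exact two-sided permutation test over libraries, on log2 FPKM, gave p = 0.0286 for circRNA and for PKR knockout against wild type, 4.32 and 6.19-fold on geometric means, and for circRNA against PKR knockout, at 0.698 of the knockout level. This is the smallest p these designs allow, and adjusted over the 6 comparisons it was 0.0571 (Benjamini-Hochberg). The 5xFAD EGFP libraries were 2.94-fold above wild type (exact p = 0.1, the smallest possible), PKR knockout was 2.1-fold above 5xFAD EGFP (exact p = 0.0667, the smallest possible), and circRNA was 1.47-fold above it (exact permutation p = 0.200).

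Nlrp3, the sensor that gives the best known inflammasome its name, was set apart in 1 group. It stood at 13.1, 17.5 and 10.3 FPKM in wild type, at 15.8 and 18.9 FPKM in 5xFAD EGFP, at 14.8, 17.1, 18.5 and 13.5 FPKM in the circRNA libraries, and at 28.0, 32.3, 26.01 and 26.1 FPKM with PKR knockout. The knockout libraries were above all 9 others, which overlapped.

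Pycard, the adaptor, did not follow Nlrp3. Its levels were 10.1, 10.6 and 6.80 FPKM in wild type, 11.1 and 10.1 FPKM in 5xFAD EGFP, 9.91, 13.2, 15.4 and 11.1 FPKM in the circRNA libraries, and 11.2, 11.5, 10.9 and 12.0 FPKM with PKR knockout. Replicate 3 was the high library with circRNA and the low one in wild type.

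The caspases moved over a narrow range. Casp1 stood at 4.70, 4.06 and 2.81 FPKM in wild type, at 5.48 and 4.63 FPKM in 5xFAD EGFP, at 5.22, 6.63, 5.93 and 4.82 FPKM in the circRNA libraries, and at 4.88, 6.06, 5.03 and 5.87 FPKM with PKR knockout. Casp4 stood at 2.35, 2.58 and 1.77 FPKM in wild type, at 3.21 and 3.34 FPKM in 5xFAD EGFP, at 3.63, 3.66, 3.76 and 3.2 FPKM in the circRNA libraries, and at 3.65, 4.51, 3.17 and 4.14 FPKM with PKR knockout. For Casp4 each 5xFAD library was above each wild type library, while the 3 5xFAD groups overlapped. The 2 genes are related in sequence, and how reads matching both were counted is not given in the sources used here.

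Gsdmd, the pore former, stood at 25.8, 23.8 and 16.8 FPKM in wild type, at 17.6 and 17.3 FPKM in 5xFAD EGFP, at 15.9, 19.2, 20.5 and 17.8 FPKM in the circRNA libraries, and at 20.1, 19.1, 19.0 and 17.6 FPKM with PKR knockout. Wild type replicates 1 and 2 were the highest of the 13 libraries and wild type replicate 3 was among the lowest, so the groups overlapped. Without wild type replicate 3 Gsdmd was lower than wild type in 5xFAD EGFP (limma, adjusted p = 0.0114), with circRNA (0.00742) and with PKR knockout (0.0111), and with all 13 libraries it passed in none of these in the fit described here, but did under some other scalings and library weights.

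The first comparison asked what the 5xFAD genotype does under the control vector. Il1b rose. Its mean was 3.91 ± 1.51 FPKM (SD, n = 3) in wild type and 12.2 ± 2.97 FPKM (SD, n = 2) in 5xFAD EGFP libraries, a difference of 1.45 in log2(FPKM + 1) (SE 0.27; limma, adjusted p = 0.00399). Casp4 rose from 2.24 ± 0.421 to 3.28 ± 0.0889 FPKM, a difference of 0.41 (SE 0.12; limma, adjusted p = 0.0466). These 2 of the 8 members tested rose and 0 fell, where 14% of all genes tested passed, 7.65% higher and 6.35% lower. The ranges of the libraries did not overlap in 3 of 8 members (37.6% of all genes), 2 higher (16.5%) and 1 lower, Il18 (21.1%), and 3 of 8 had an unadjusted p under 0.05 (26.2%). The members had a median difference of 0.34 in log2(FPKM + 1) and all genes tested one of -0.03. Nlrp3 (0.35), Il1a (0.34), Casp1 (0.34) and Pycard (0.22) were above 0 and Il18 (-0.27) and Gsdmd (-0.31) below without passing, with adjusted p from 0.0659 to 0.486 in limma. The call of Il1b was lost without 5xFAD EGFP replicate 1 (1.22, limma adjusted p = 0.0569). That of Casp4 was lost under 9 of 13 alternatives, among them leaving out either 5xFAD EGFP library (adjusted p = 0.160 and 0.242), wild type replicate 1 (0.0713) or wild type replicate 3 (0.0915).

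Markers of other cell types and genes known to respond to handling also differed in this comparison. Microglia prepared outside the brain are known to switch on immediate-early and heat shock genes, and a list of 13 such genes (Fos, Fosb, Jun, Junb, Egr1, Ier2, Atf3, Nr4a1, Zfp36, Dusp1, Btg2, Hspa1a and Hspa1b) summed to 721 to 1227 FPKM in wild type and to 1321 to 1407 FPKM in 5xFAD EGFP, with 5 of 13 higher and 0 lower. The heat shock genes Hspa1a (0.34) and Hspa1b (0.26) did not pass, and Nr4a1 was below 0 (-0.22) without passing. Markers of border macrophages, which also express interleukin-1 genes, summed to 41.9 to 66.3 FPKM in wild type and 20.04 to 28.6 FPKM in 5xFAD EGFP, with 6 of 6 lower. Neutrophil markers, from cells that can be rich in Il1b, summed to 5.78 to 7.56 FPKM in wild type and 4.47 to 9.71 FPKM in 5xFAD EGFP. Of the 8 neutrophil markers S100a9 reached 11.9 FPKM, Ngp 6.68 FPKM and S100a8 3.88 FPKM in some library, while Ly6g was at most 0.116 and Cxcr2 at most 0.225 FPKM. The microglial marker Tmem119 fell by 1.07 in log2(FPKM + 1) (limma, adjusted p = 0.0227), with 398 ± 86.2 FPKM (SD, n = 3) for wild type and 186 ± 27.3 FPKM (SD, n = 2) for 5xFAD EGFP. Mural markers were lower in 4 of 4 tested, with sums of 17.9 to 31.3 against 49.2 to 108 FPKM in wild type, and endothelial markers in 3 of 5, with sums of 21.1 to 29.3 against 43.6 to 98.5 FPKM. Of the 5 astrocyte markers Gfap was higher (1.72; limma, adjusted p = 0.00868) and the other 4 were below 0 without passing, with a median of -0.44 over the 5. Of the monocyte markers only Fn1 reached the filter, and it was lower (-1.23; limma, adjusted p = 0.0122). The monocyte sum was 8.84 to 19.95 FPKM in wild type and 4.78 to 7.32 FPKM in 5xFAD EGFP. The part of handling, of these cell types and of microglial number in these results was not tested.

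**Figure D2:**
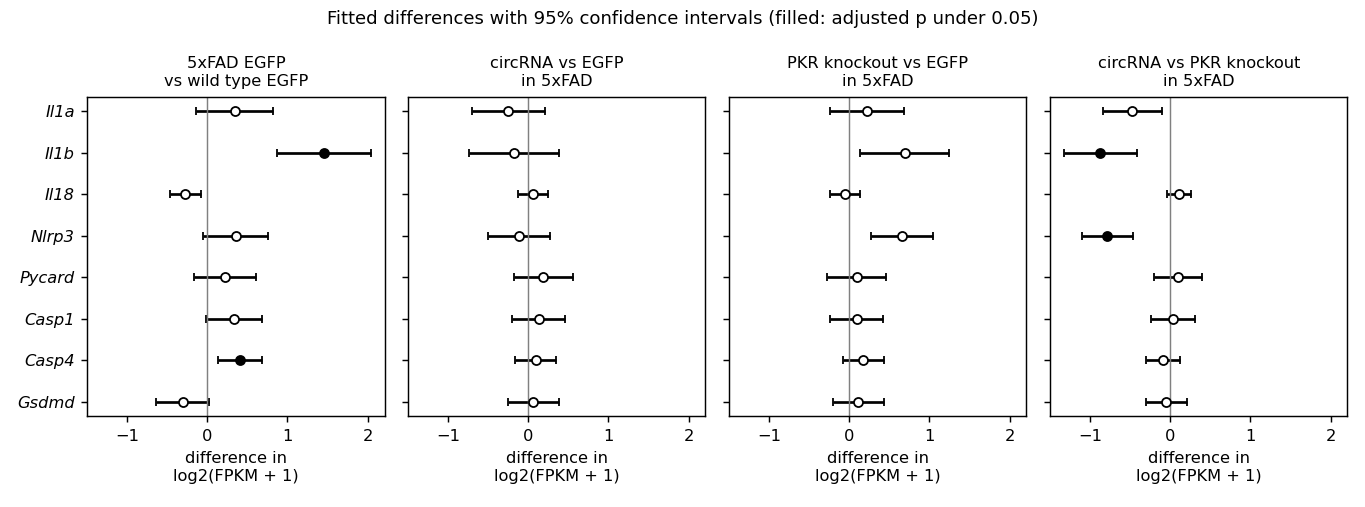
Fitted difference in log2(FPKM + 1) of the 8 tested members in 4 comparisons (points, with 95% confidence intervals from limma; filled points have an adjusted p under 0.05). Il1b and Casp4 are filled for 5xFAD EGFP against wild type, Il1b and Nlrp3 are filled and negative for circRNA against PKR knockout, and no point is filled in the 2 comparisons with 5xFAD EGFP as the control.

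The second comparison, circRNA against EGFP in 5xFAD mice, addresses whether the delivered RNA alters the microglial state. None of the 8 members passed in limma, and 0% of all genes tested did. At an unadjusted p under 0.05 there were 0 of 8 members and 4.83% of all genes. Ranges did not overlap in 1 of 8 members (19.3% of all genes), Il18, which was higher (16.6%), and in 0 lower (2.65%). Il1b differed by -0.18 in log2(FPKM + 1) with a 95% confidence interval from -0.73 to 0.38, Nlrp3 by -0.12 (interval -0.50 to 0.27) and Il1a by -0.25 (interval -0.71 to 0.21). Without 5xFAD EGFP replicate 1 Il1b was at 0.0540 and without replicate 2 at -0.409, and Nlrp3 was at -0.242 and 0.00550, so the direction of both rested on 1 control library. The intervals of Il18 (-0.13 to 0.24), Casp4 (-0.17 to 0.35), Gsdmd (-0.25 to 0.38), Casp1 (-0.20 to 0.46) and Pycard (-0.18 to 0.55) bound the other members. The control had 2 libraries, and a change of Il1b anywhere within its interval remains compatible with the data. The interval is not a limit of detection. The summed handling genes were 847 to 1253 FPKM with circRNA, under the 1321 and 1407 FPKM of the EGFP libraries, with 13 of 13 below 0 in the fit and 0 called.

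In the third comparison, PKR knockout against EGFP in 5xFAD mice, the largest differences in log2(FPKM + 1) among the 8 tested members were those of Il1b and Nlrp3, and neither passed. Nlrp3 was at 28.1 ± 2.94 FPKM (SD, n = 4) against 17.4 ± 2.22 FPKM (SD, n = 2), a difference of 0.66 (SE 0.18, 95% interval 0.28 to 1.05; limma, adjusted p = 0.194). Il1b was at 20.4 ± 4.62 FPKM against 12.2 ± 2.97 FPKM, a difference of 0.69 (SE 0.26, 95% interval 0.14 to 1.25; limma, adjusted p = 0.279). In limma 0 of 8 members and 0.0832% of all genes passed, all of the latter higher. At an unadjusted p under 0.05 there were 2 of 8 members and 13% of all genes. In 2 members the ranges of the libraries were higher with PKR knockout and in Il18 lower, where 17.7% and 17% of all genes were so, 34.8% in either direction. The adjusted p of Nlrp3 ran from 0.0160 to 0.761 over the alternatives and passed in 2 of 14 of them, with only these 2 groups in the fit (0.0160) and with weighted libraries (0.0178). The other members lay between -0.05 (Il18) and 0.22 (Il1a). The handling genes summed to 1640 to 2044 FPKM with PKR knockout against 1321 to 1407 FPKM, with 11 of 13 above 0 in the fit and 0 called. The 2 below 0 were the heat shock genes Hspa1a (-1.59) and Hspa1b (-1.58), with all knockout libraries below both EGFP libraries. Oligodendrocyte markers summed to 213 to 359 against 597 to 641 FPKM, with 5 of 5 below 0 and 0 called. The part of handling and of oligodendrocytes was not tested.

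The direct comparison of the 2 interventions, circRNA against PKR knockout, separated the same pair. Nlrp3 was lower with circRNA, 16.0 ± 2.24 against 28.1 ± 2.94 FPKM (SD, n = 4 each), a difference of -0.78 (SE 0.14; limma, adjusted p = 0.0137). Il1b was lower with circRNA, 10.7 ± 2.17 against 20.4 ± 4.62 FPKM, a difference of -0.87 (SE 0.21; limma, adjusted p = 0.0329). These 2 of 8 members fell and 0 rose, where 6.19% of all genes passed, 4.28% higher and 1.91% lower. Ranges did not overlap in 3 of 8 (19.5% of all genes), with Il18 higher (15.1%) and Il1b and Nlrp3 lower (4.44%), and 3 of 8 had an unadjusted p under 0.05 (25.5%). Il1a differed by -0.47 (SE 0.17; limma, adjusted p = 0.111), and the remaining 5 lay between -0.09 (Casp4) and 0.11 (Il18), with adjusted p of 0.333 or more. Nlrp3 passed under all 16 alternatives, with adjusted p from 0.000450 to 0.0492. Il1b was lost with no filter on low values (0.0630) and when circRNA replicate 1, 2 or 4 or knockout replicate 1, 2 or 4 was left out, with adjusted p from 0.0506 to 0.0993 in limma.

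The handling genes moved with Nlrp3 and Il1b in the comparison of circRNA with PKR knockout. They summed to 847 to 1253 FPKM with circRNA and to 1640 to 2044 FPKM with PKR knockout. The 11 immediate-early genes were lower with circRNA, while the 2 heat shock genes Hspa1a and Hspa1b were above 0 without passing. Sequencing depth also differed, 45.2 to 52.9 M fragments with circRNA against 57.7 to 70.0 M with PKR knockout. The neutrophil sum was 25.0 FPKM in knockout replicate 4 and at most 9.71 FPKM in any other library. Border macrophage sums overlapped, at 15.5 to 26.98 and 15.6 to 21.4 FPKM. The part of handling, depth and neutrophils in the difference was not tested.

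**Figure D3:**
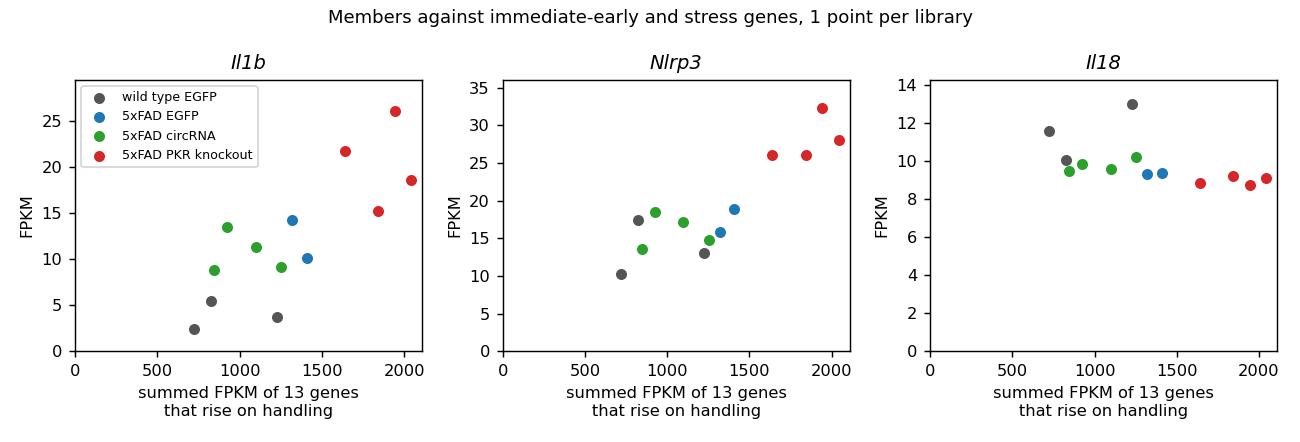
Il1b, Nlrp3 and Il18 (FPKM, y axis) against the summed FPKM of the 13 handling genes (x axis), 1 point per library. The PKR knockout libraries lie at the right, from 1640 to 2044 FPKM, and are the highest for Il1b and Nlrp3 and the lowest for Il18.

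The circRNA and PKR knockout groups were also compared with wild type. With circRNA, Il1b (1.28, SE 0.23, adjusted p = 0.00131), Casp4 (0.50, SE 0.10, adjusted p = 0.00395) and Casp1 (0.47, SE 0.14, adjusted p = 0.0240) rose in limma. These were 3 of 8 members, where 25.8% of all genes passed, 17.8% higher and 8.05% lower. The same 3 had ranges above wild type (28.2% of all genes without overlap, 20.2% higher and 8% lower), and 5 of 8 had an unadjusted p under 0.05 (36.7%). Casp1 was lost under 6 of 15 alternatives, among them leaving out wild type replicate 3 (0.30, adjusted p = 0.0877), circRNA replicate 2 (0.0662) or circRNA replicate 3 (0.0562). Without wild type replicate 2, Il18 passed as lower (limma, adjusted p = 0.00966), and it did so in 5xFAD EGFP too (0.0122). Border macrophage markers were lower with circRNA in 6 of 6, at 15.5 to 26.98 against 41.9 to 66.3 FPKM, mural markers in 3 of 4 and endothelial markers in 2 of 5. The monocyte marker Fn1 was lower too (-0.73; limma, adjusted p = 0.0364). Among microglial markers Tmem119 was lower (-0.94, adjusted p = 0.0111) and C1qa higher (0.83, adjusted p = 0.0106), and of the 5 astrocyte markers Gfap was higher (1.84, adjusted p = 0.000896) and 4 were below 0 without passing. Of the 13 handling genes 2 were higher, among them Atf3, and 1 was lower, and the part of these in the calls was not tested.

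With PKR knockout, 5 of 8 members rose and 1 fell against wild type, where 37% of all genes passed, 17.5% higher and 19.4% lower. Ranges did not overlap in 7 of 8 (40.9% of all genes), 6 higher (19.8%) and 1 lower (21.1%), and 6 of 8 had an unadjusted p under 0.05 (46.7%). Il1b rose by 2.15 (SE 0.23; limma, adjusted p = 2.00e-05), Nlrp3 by 1.02 (SE 0.16, adjusted p = 0.000382) and Casp4 by 0.59 (SE 0.10, adjusted p = 0.00106). Il1a (0.56, adjusted p = 0.0314) and Casp1 (0.43, adjusted p = 0.0268) rose too. Of 15 alternatives, Il1a was lost under 8 and Casp1 under 6. Among these, both were lost without wild type replicate 3 (adjusted p = 0.119 and 0.106) and without knockout replicate 2 or 4. Without wild type replicate 1 Il1a was also lost (0.0526). Il18 fell by 0.32 (SE 0.08, adjusted p = 0.00571), where wild type had 11.5 ± 1.48 FPKM (SD, n = 3) and the knockout 8.96 ± 0.229 FPKM (SD, n = 4). The handling sum was 721 to 1227 FPKM in wild type and 1640 to 2044 FPKM with PKR knockout, with 10 of 13 genes higher and 2 lower. The 2 lower were the heat shock genes, Hspa1a with means of 70.0 FPKM in wild type and 31.3 FPKM with PKR knockout, and Hspa1b with 152 and 67.0 FPKM. The border macrophage sum was 41.9 to 66.3 FPKM in wild type against 15.6 to 21.4 FPKM. Mural markers were lower in 4 of 4 tested and endothelial markers in 3 of 5, while 1 of 5 astrocyte markers was higher and 2 were lower. The monocyte marker Fn1 was lower too (-0.64; limma, adjusted p = 0.0489). Among microglial markers P2ry12 (-0.94, adjusted p = 0.00227) and Tmem119 (-0.78, adjusted p = 0.0207) were lower and C1qa was higher (0.93, adjusted p = 0.00420). The part of these in the calls was not tested. The comparisons with wild type share its 3 libraries, so they are not independent of one another.

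Ratios within a library do not depend on its total. Il1b to Il1a, 2 ligands of the same receptor, was 0.133 to 0.191 in wild type, 0.289 and 0.527 in 5xFAD EGFP, 0.326 to 0.597 with circRNA and 0.509 to 0.619 with PKR knockout. Wild type stood apart and the 3 5xFAD groups overlapped. Nlrp3 to Pycard, sensor to adaptor, was 1.29 to 1.66 in wild type, 1.42 and 1.87 in 5xFAD EGFP, 1.20 to 1.49 with circRNA and 2.17 to 2.80 with PKR knockout, where all 4 libraries were above the other 9. Il1b to Il1rn, ligand to antagonist, was 53.0 to 103 in wild type, 53.8 and 101 in 5xFAD EGFP, 33.3 to 52.7 with circRNA and 46.6 to 74.3 with PKR knockout. The 4 circRNA libraries were below both EGFP groups and overlapped PKR knockout. In wild type the antagonist rested on 13.0 to 18.0 fragments. Casp1 to Casp4 was 1.34 to 2.00 and overlapped between all groups. A ratio shows unequal levels and not which of the 2 genes changed.

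**Figure D4:**
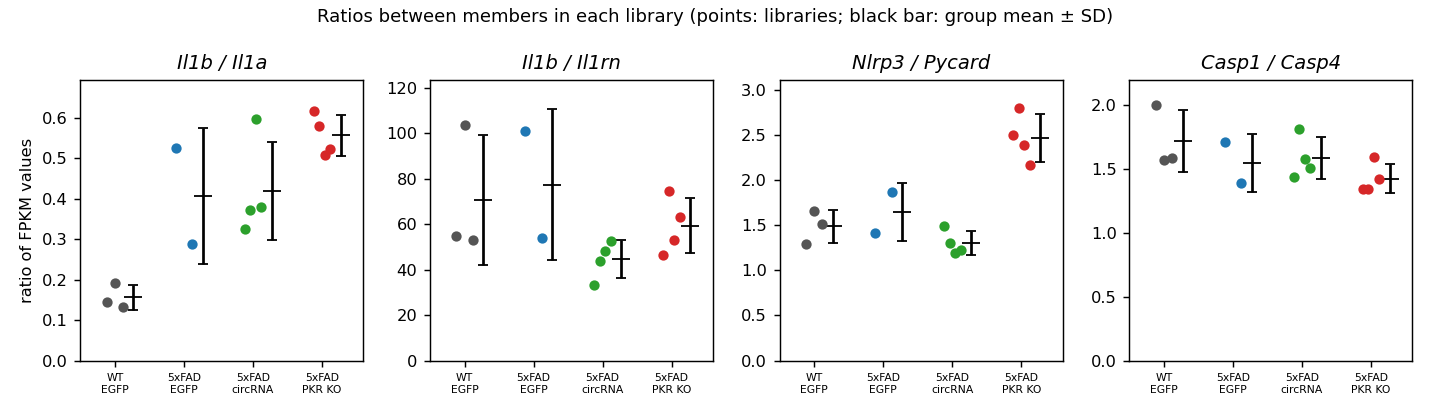
Ratio of FPKM values between members in each library (1 point per library; black, group mean ± SD). Il1b to Il1a is lowest in wild type, at 0.133 to 0.191, Nlrp3 to Pycard is highest with PKR knockout, at 2.17 to 2.80, Il1b to Il1rn with circRNA lies at 33.3 to 52.7, just under both EGFP groups, and Casp1 to Casp4 overlaps between groups.

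The genes whose profile over the 13 libraries was most like that of each member were found by the root mean square difference of centred log2(FPKM + 1). For Il1b they were Cd83 (0.17), a surface protein of activated antigen-presenting cells, the cytokine gene Osm (0.21) and the lipoprotein receptor gene Tlr2 (0.21), against a spread of Il1b itself of 0.83. Cd83 had group means of 23.0, 68.0, 65.6 and 109.5 FPKM in the order wild type, EGFP, circRNA and PKR knockout. For Nlrp3 they were Tnfaip2 (0.08), the polo-like kinase gene Plk3 (0.14) and Rasgef1b (0.14), against 0.44 for Nlrp3 itself. Plk3 (0.16) also led the list of Il1a, before the cyclin gene Ccnl1 (0.17) and Skil (0.18). Casp1 was matched most closely by Clec5a (0.06), Rassf4 (0.06) and Sgpl1 (0.07), Casp4 by Mrpl54 (0.07), Lrrfip1 (0.08) and Eif4a1 (0.08), and Pycard by Epsti1, Sumf1 and Cd86 (0.08 each). Il18 was matched by Slc25a32 (0.04), Slc37a3 (0.05) and Chuk (0.05), and Gsdmd by Ap1b1 (0.06), Map11 (0.07) and Pts (0.07). The spread of the member itself was 0.32 for Il1a, 0.26 for Casp4, 0.25 for Casp1, 0.23 for Pycard, 0.18 for Gsdmd and 0.14 for Il18. The difference shrinks with this spread, so a smaller value is not by itself a closer match. Likeness over 13 libraries of 4 groups describes a shared profile of levels, and libraries share their depth and handling.

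Around the members, 79 further genes of the pathway were listed in 5 roles, of which 71 were in the table and 46 were tested. Of these 3 rose and 4 fell in 5xFAD EGFP against wild type, where 7.65% of all genes were higher and 6.35% lower. None passed for circRNA or PKR knockout against EGFP in limma. With circRNA 1 was higher and 2 were lower than with PKR knockout, where 4.28% and 1.91% of all genes were. Against wild type 10 were higher and 4 lower with circRNA (17.8% and 8.05% of all genes), and 9 were higher and 10 lower with PKR knockout (17.5% and 19.4%). The median difference of the 46 genes was -0.05 in log2(FPKM + 1) for 5xFAD EGFP against wild type and 0.05 for circRNA against PKR knockout, where that of all genes tested was -0.03 and 0.08.

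The receptor genes Il1r1, Il1rap and Il1r2 were expressed at low levels. Il1r1, the signalling receptor, stood at 1.31 ± 0.15 FPKM (SD, n = 3) in wild type, 1.69 ± 0.0214 (n = 2) in 5xFAD EGFP, 2.11 ± 0.204 (n = 4) with circRNA and 2.13 ± 0.104 (n = 4) with PKR knockout. It rose in both treated groups against wild type by 0.43 (SE 0.07; limma, adjusted p = 0.000677) and 0.44 (SE 0.07, adjusted p = 0.000462) in log2(FPKM + 1). Endothelial cells also express this receptor, and their marker sums were 43.6 to 98.5 FPKM in wild type, 27.3 to 57.1 FPKM with circRNA and 29.9 to 41.6 FPKM with PKR knockout; their part was not tested. The accessory chain Il1rap was at 0.798 ± 0.0569 FPKM with PKR knockout and 1.47 ± 0.0929 FPKM in 5xFAD EGFP (-0.46; limma, adjusted p = 0.210). Il18bp, which binds free interleukin-18, was higher with circRNA (0.46, adjusted p = 0.0142) and PKR knockout (0.45, adjusted p = 0.0119) than in wild type. The decoy receptor Il1r2 stayed at group means of 0.435 to 0.583 FPKM, under the filter.

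Among the signalling genes, Irak2, a kinase of the receptor complex, was lower with circRNA than with PKR knockout, 21.3 ± 1.45 against 28.1 ± 0.739 FPKM (-0.39, SE 0.07; limma, adjusted p = 0.0118). Tollip, an inhibitor of that complex, was higher with circRNA, 8.14 ± 0.830 against 6.36 ± 0.256 FPKM (0.31; limma, adjusted p = 0.0289). Myd88, the adaptor, passed in none of the 6 comparisons, with group means of 7.59 to 9.76 FPKM. Tnfaip3, which encodes A20, a brake on NF-kappaB and NLRP3, had the largest difference of the list between circRNA and PKR knockout. It stood at 12.9 ± 3.51 FPKM in wild type, 28.5 ± 0.675 in 5xFAD EGFP, 23.7 ± 3.23 with circRNA and 57.9 ± 6.66 with PKR knockout. It rose in 5xFAD EGFP against wild type (1.12, SE 0.20; limma, adjusted p = 0.00305) and was lower with circRNA than with PKR knockout (-1.25, SE 0.15, adjusted p = 0.00284).

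Among the other sensors, Aim2, a sensor of cytosolic DNA, had group means of 12.8 to 14.5 FPKM and passed in none of the 6 comparisons. Nlrp1b stood at 10.2 ± 1.58 FPKM in wild type and 6.45 ± 0.659 FPKM with PKR knockout and fell by 0.58 (SE 0.11; limma, adjusted p = 0.00168), and by 0.40 (adjusted p = 0.0202) with circRNA. Nlrp1a fell by 0.44 (SE 0.10; limma, adjusted p = 0.0142) in 5xFAD EGFP against wild type, by 0.33 (adjusted p = 0.0143) with circRNA and by 0.43 (adjusted p = 0.00216) with PKR knockout. Nlrc4, the partner of the NAIP proteins, was scarce, with 0.442 FPKM in wild type and 0.117 FPKM with PKR knockout. Ifi204, of the interferon-inducible family of DNA sensors, rose by 1.43 (SE 0.18; limma, adjusted p = 0.000258) in 5xFAD EGFP against wild type, by 1.78 with circRNA and by 1.89 with PKR knockout. Nlrp1a, Nlrp1b, Ifi204 and the guanylate-binding protein genes have close copies, and reads shared between copies could be split by the counting.

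Of the triggers, Nek7, which binds NLRP3, was higher with circRNA than in wild type (0.34, SE 0.08; limma, adjusted p = 0.00896) and did not pass in the other 5 comparisons. P2rx7, the ATP-gated channel that starts NLRP3 assembly, had group means of 19.5 to 24.4 FPKM and passed in none of the 6, with its smallest adjusted p, 0.0542, for circRNA against wild type. Gbp7, Gbp3 and Gbp5, encoding guanylate-binding proteins that act with caspase-11, fell in 5xFAD EGFP against wild type by 0.99 (SE 0.20; limma, adjusted p = 0.00670), 0.64 (SE 0.15, adjusted p = 0.0136) and 0.45 (SE 0.13, adjusted p = 0.0398). Gbp7 was also lower than wild type with circRNA (-0.72, adjusted p = 0.00788) and with PKR knockout (-1.15, adjusted p = 0.000277). Among the executors, Zbp1, a sensor of Z-form nucleic acids, rose from 0.495 FPKM in wild type to 1.97 FPKM in 5xFAD EGFP (0.99, SE 0.16; limma, adjusted p = 0.00176), and by 1.49 and 1.46 with circRNA and PKR knockout. Casp8 fell by 0.31 (SE 0.10; limma, adjusted p = 0.0349) with PKR knockout against wild type, from 22.6 ± 3.63 to 17.9 ± 0.255 FPKM.

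Il33, another cytokine of the family, is given because its level moved with the markers of another cell type. It stood at 2.61 ± 0.764 FPKM with PKR knockout against 9.16 ± 0.0974 FPKM in 5xFAD EGFP (-1.52, SE 0.46; limma, adjusted p = 0.216), and was chosen after its values were seen. Oligodendrocytes, which are known to express it, had marker sums of 213 to 359 FPKM in the knockout and 597 to 641 FPKM in the EGFP libraries, and their part was not tested.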

How the data were processed

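Total RNA of microglia was sequenced in 13 libraries. Per the labels' protocols, RNA was extracted with TRIzol, depleted of ribosomal RNA and made into stranded libraries. Per the submitters' processing notes, HISAT2 2.1.0, Bowtie2 2.3.5, featureCounts 1.5.1 and build mm10 were used; their roles, the annotation and the strand setting are not given in the sources used here. The authors deposited 1 table of FPKM values holding a column per library. FPKM is relative to the library's total, so large changes in abundant genes shift the others. Depth was recovered from low values with GENCODE M21 exon lengths (found for 98.3% of genes): 91.0% to 92.9% of them were whole fragments within 0.05. Counting error was at most 6.87% for the 8 tested members. In the 16 pairs of replicates the chi-square of recovered fragments was 13.2 to 171 times its degrees of freedom, so no library was counted as deposited again.

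Differences were fitted with limma 3.58.1 (R 4.3.3). The 10817 genes whose mean reached 1 FPKM entered as log2(FPKM + 1), with 1 mean per group over all 13 libraries, eBayes with trend, and Benjamini-Hochberg adjustment over all genes within each of 6 comparisons, at a threshold of 0.05. This scale understates the change of low genes. The script was tested on simulated data. Il1rn was compared by exact permutation (scipy 1.17.1), a test chosen after it was seen to miss the filter. Alternatives were another pseudocount (0.1), no filter, 3 other scalings, library weights, 2 groups alone, a replicate block and leaving out each library. Named pathway genes were, in each comparison, the 3 higher and 3 lower with the smallest adjusted p among those that passed, and 11 named whatever their result. Il33 and Gbp2 were added after their values were seen. Members, lists and rules were chosen with earlier results of these data known. A summed level of the microglial markers is not reported here.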

Additional observations from a re-analysis of the deposited data

How the results depend on the processing

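The number of members past the threshold changed with the processing in 5 of the 6 comparisons, all but circRNA against EGFP. For 5xFAD EGFP against wild type it was 2, and 1 with no filter, with these 2 groups alone or with the replicate block, and 0 to 3 without single libraries (0 without 5xFAD EGFP replicate 1). For PKR knockout against EGFP it was 0, and 1 (Nlrp3) with library weights or these 2 groups alone. For circRNA against PKR knockout it was 2, and 1 with no filter and 1 to 2 without single libraries. For circRNA against wild type it was 3, and 5 with no filter, median-ratio scaling or quantile normalization, and 2 to 5 without single libraries. For PKR knockout against wild type it was 6, and 4 to 7 over all alternatives. Il18 and Gsdmd passed as lower than wild type under some of the scalings. Rescaling to the same sum moved the median of all genes to -0.17, -0.20 and -0.24 against wild type, from -0.03, 0.02 and -0.05. The cause of these shifts was not tested.

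For the 8 tested members over all comparisons 609 values kept direction and side of the threshold, 25 newly passed, 37 no longer passed and 25 changed sign; no value that changed sign had passed. For circRNA against EGFP, Il18 was -0.0459 rescaled, -0.0326 with median-ratio scaling and -0.0318 with quantile normalization, Gsdmd was -0.0468, -0.0329 and -0.0368 under the same settings and -0.0345 with library weights, and leaving out single libraries gave -0.409 to 0.0540 for Il1b and -0.242 to 0.00550 for Nlrp3. For PKR knockout against EGFP, Casp1 was -0.00936 to 0.195 without single libraries. For circRNA against PKR knockout, Casp1 was -0.0115 rescaled, -0.0484 with median-ratio scaling, -0.0418 with quantile normalization and -0.0186 with library weights, Pycard was -0.000406 with median-ratio scaling and -0.0593 with library weights, and leaving out single libraries gave -0.0312 to 0.0993 for Casp1, -0.0109 to 0.186 for Pycard and -0.102 to 0.0138 for Gsdmd. For circRNA against wild type, Il1a was -0.186 rescaled, -0.147 with quantile normalization and -0.0838 to 0.217 without single libraries (lowest without wild type replicate 3), and Nlrp3 was -0.0372 rescaled and -0.00124 with library weights.

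Whether the shared replicate numbers pair the libraries could not be decided. Correlations of same-numbered deviations were 0.10, 0.55, 0.06 and 0.04 for circRNA and PKR knockout, and -0.42, 0.69 and -0.20 for circRNA and wild type. For PKR knockout and wild type they were -0.18, 0.58 and 0.03, and replicate 2 had the highest value in each. Deviations from the mean of so small a group are tied to one another, so such values cannot exclude pairing. With the replicate block 1 member passed for 5xFAD EGFP against wild type, and 2, 3 and 6 for circRNA against PKR knockout and for circRNA and PKR knockout against wild type, as without it. No library was apart from its group for any member by Dixon's criterion in the groups of 4. For Il1rn the exact permutation p of 0.0286 rose to at most 0.0571 for circRNA against PKR knockout when a library was left out, where the smallest possible p stays at 0.0286. Against wild type it rose to at most 0.1, where the smallest possible p is also larger. Depth limits Il1rn, which rested on 13.0 fragments at its lowest.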
